A study of Mus musculus with 2 samples.

Results

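The regions described here are distal open chromatin regions with at least 4-fold more signal in doxycycline-treated (DOX) than in ethanol-treated (EtOH) mammary organoids. They were chosen by that ratio itself, so the ratio is a description of them and was not tested. They were measured by single-cell ATAC-seq, in which a transposase cuts accessible DNA of single nuclei and the cuts are counted, with 1 library per group. Both groups were primary organoids of C57BL/6J mice of the genotype shTRPS1.34 ki/+; CAG-rtTA3 tg/+. These mice carry an inducible shRNA against Trps1 and a transactivator under the ubiquitous CAG promoter, so induction was not limited to a single cell type. The study reports that this driver did not induce the shRNA in every mammary cell of such mice. Which cells of the organoids expressed it is not known here. DOX organoids received 0.1 µg/ml doxycycline and EtOH organoids the solvent, each for 7 days, in Matrigel and a medium with Neuregulin, Noggin and R-spondin. Mice were 12 to 20 weeks old, a range stated for all experiments together. Cells of several mice were mixed in each library, and the effect of doxycycline itself cannot be told apart from that of the shRNA. A legend of the study names wild-type mice for this experiment, and the sample labels were followed here.

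Overlapping peaks on chromosomes 1 to 19 gave 268016 regions after merging, and 170665 of them contained peaks from both libraries. Of these, 137290 were distal, with a midpoint 1 to 200 kb from the nearest protein-coding transcription start site (TSS) and at least 200 counts over both libraries. In all, 6847 distal regions (4.99%) had a ratio of 4 or more, and 2001 were at least 4-fold lower. Of the 6847, 6533 (95.4%) drew at least 50% of their DOX counts from immune-like cells and are called immune-supplied. The other 314 (4.59%) drew most of their DOX counts from the remaining cells and are called epithelial-supplied.

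TRPS1 is a zinc finger protein that binds GATA sequences and represses transcription. Distal elements such as enhancers are bound by cell type-specific transcription factors and are open mainly in the cells that use them. In macrophages and other myeloid cells the ETS family factor PU.1, encoded by Spi1, occupies many such elements. The mammary epithelium consists of basal cells, luminal progenitors and hormone-sensing luminal cells, and immune cells, macrophages among them, reside within and around its ducts.

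The central 300 bases of 8 members are shown first. Over all members the classes differ in how often they carry some short sequences, which 8 stretches cannot show. They are the 3 highest ratios and the member with the most counts in each class, read from GRCm38 on the plus strand and named by the gene with the nearest TSS. In the epithelial-supplied members, capitals mark the GATA string AGATAA or its reverse complement TTATCT.
Chrm3, chr13:10526674-10526973, intergenic: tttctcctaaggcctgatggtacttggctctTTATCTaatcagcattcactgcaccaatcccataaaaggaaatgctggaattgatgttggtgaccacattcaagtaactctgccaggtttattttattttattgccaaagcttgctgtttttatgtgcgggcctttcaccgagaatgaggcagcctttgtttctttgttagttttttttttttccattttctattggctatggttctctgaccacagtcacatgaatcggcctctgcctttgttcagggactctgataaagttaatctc
Scara3, chr14:65900586-65900885, intergenic: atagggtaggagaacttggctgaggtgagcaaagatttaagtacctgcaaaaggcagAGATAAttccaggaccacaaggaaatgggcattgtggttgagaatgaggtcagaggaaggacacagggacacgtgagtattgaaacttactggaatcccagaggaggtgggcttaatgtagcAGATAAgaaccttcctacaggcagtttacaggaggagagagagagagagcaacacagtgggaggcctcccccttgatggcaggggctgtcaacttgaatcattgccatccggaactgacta
Lypd6b, chr2:49832464-49832763, in an intron: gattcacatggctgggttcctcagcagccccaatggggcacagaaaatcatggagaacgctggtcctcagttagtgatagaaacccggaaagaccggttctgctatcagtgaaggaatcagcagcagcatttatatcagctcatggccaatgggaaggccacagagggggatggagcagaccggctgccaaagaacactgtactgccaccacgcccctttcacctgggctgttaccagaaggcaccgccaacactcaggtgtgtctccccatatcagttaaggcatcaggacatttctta
Cyp4a29, chr4:115230053-115230352, intergenic: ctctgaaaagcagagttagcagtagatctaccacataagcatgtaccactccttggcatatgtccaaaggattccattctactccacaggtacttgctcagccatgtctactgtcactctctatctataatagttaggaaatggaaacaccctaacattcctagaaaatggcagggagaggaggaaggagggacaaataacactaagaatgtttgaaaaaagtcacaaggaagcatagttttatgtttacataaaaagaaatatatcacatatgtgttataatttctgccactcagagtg
In the immune-supplied members, capitals mark the ETS string AGGAAG or its reverse complement CTTCCT.
Srgn, chr10:62543467-62543766, in an intron: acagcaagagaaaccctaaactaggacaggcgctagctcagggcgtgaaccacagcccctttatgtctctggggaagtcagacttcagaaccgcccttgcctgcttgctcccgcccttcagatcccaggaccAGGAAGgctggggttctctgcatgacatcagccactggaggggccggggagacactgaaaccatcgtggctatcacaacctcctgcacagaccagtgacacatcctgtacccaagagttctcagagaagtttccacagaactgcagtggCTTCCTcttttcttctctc
Herpud2, chr9:25123906-25124205, in an intron: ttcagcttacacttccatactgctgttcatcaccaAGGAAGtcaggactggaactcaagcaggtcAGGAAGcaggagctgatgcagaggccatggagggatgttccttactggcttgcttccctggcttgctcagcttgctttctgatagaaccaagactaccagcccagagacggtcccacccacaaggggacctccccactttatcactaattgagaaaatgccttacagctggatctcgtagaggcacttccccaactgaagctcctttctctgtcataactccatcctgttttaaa
Shq1, chr6:100480206-100480505, intergenic: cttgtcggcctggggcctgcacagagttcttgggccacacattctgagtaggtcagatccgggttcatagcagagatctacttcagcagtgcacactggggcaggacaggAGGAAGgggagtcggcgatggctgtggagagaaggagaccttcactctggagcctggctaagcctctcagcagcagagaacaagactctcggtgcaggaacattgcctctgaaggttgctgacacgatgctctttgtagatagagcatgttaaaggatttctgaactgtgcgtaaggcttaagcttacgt
Akap7, chr10:25151400-25151699, intergenic: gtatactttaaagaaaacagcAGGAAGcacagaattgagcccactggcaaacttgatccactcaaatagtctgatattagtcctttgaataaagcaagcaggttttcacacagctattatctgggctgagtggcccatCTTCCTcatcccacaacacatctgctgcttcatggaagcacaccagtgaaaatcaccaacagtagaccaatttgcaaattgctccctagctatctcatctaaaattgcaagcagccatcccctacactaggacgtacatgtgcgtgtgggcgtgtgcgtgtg
The Scara3 stretch held 2 GATA strings and the Chrm3 stretch 1, while the Lypd6b and Cyp4a29 stretches held 0. The Srgn, Herpud2 and Akap7 stretches held 2 ETS strings each and the Shq1 stretch 1. Each class was marked for its own string only, and the other string also occurred. The Scara3 stretch held 2 ETS strings as well, the Cyp4a29 stretch also held ETS strings, and the Akap7 stretch held 1 GATA string. The Chrm3 stretch held 0 ETS strings and the Srgn stretch 0 GATA strings. In the Lypd6b, Shq1 and Akap7 regions the DOX peak spanned the whole region and the EtOH peaks covered a shorter part of it.

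The DOX library held 3071 cells with 224762118 counts and the EtOH library 3104 cells with 211963715 counts. A median DOX cell had 75296 counts and a median EtOH cell 66789.5. The libraries had 23 cell barcodes in common. Both ends of a fragment were counted, so intervals were computed from the counts divided by 2. All intervals are 95% intervals that cover counting error only, and CPM is a count divided by all counts in shared regions of the same library, cell class or cluster and multiplied by 1000000. The study describes the DOX and EtOH organoids as matched, with cells of each mouse mixed into both libraries. With 1 library per group nothing was tested against replicates. The spread between mice or cultures could not be estimated, and differences that arose between the cultures cannot be told apart from the treatment.

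Cells were clustered with the members left out, and 2 clusters (3 and 6) were immune-like, with 8 of 9 measured immune markers higher than in other cells. They held 1260 DOX cells (41.0%) and 274 EtOH cells (8.83%), and supplied 38.9% of all counts in DOX and 6.92% in EtOH. The ratio of these count shares was 5.62. Within immune-like cells the markers of the immune list summed to 751 CPM in DOX and 753 CPM in EtOH, with 1 of 10 markers at 0 in both, against 103 and 94.2 CPM in the other cells. The 9 pan-epithelial markers summed to 734 CPM in DOX and 758 CPM in EtOH outside the immune-like clusters, against 126 and 111 CPM inside them. The label epithelial is therefore borne out for the other cells as a whole, although 8 fibroblast markers (123 CPM in DOX) and 7 endothelial markers (251 CPM in DOX, and 417 CPM in immune-like cells) also had counts there. Fewer cells of a type and fewer open copies per cell cannot be told apart in a ratio taken over all cells.

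The supply of the members was split almost completely. Of the 6847 members, 6086 drew 90% or more of their DOX counts from immune-like cells and 249 drew less than 10%, while 30 lay between 40 and 60%. Among distal regions with an immune share of 90% or more, 6086 of 11362 (53.6%) were members. Among those under 10%, 249 of 46710 (0.533%) were. The share of immune-like cells moved with this result, and its part in the result was not tested. The values within cell classes follow.

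**Figure D1:**
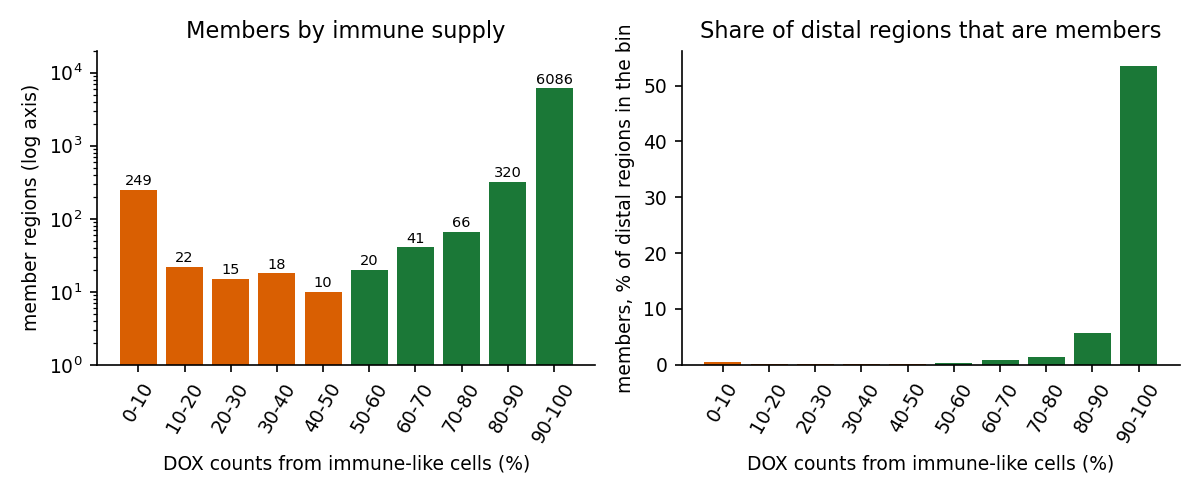
Left, number of member regions (log axis) by the share of their DOX counts that came from immune-like cells, in bins of 10%; right, members as a percentage of all distal regions in the same bin. Orange bars are epithelial-supplied and green bars immune-supplied members, and the outer bins hold 249 and 6086 members.

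Immune-supplied members had about the same level in the immune-like cells of both libraries. Within these cells the median was 13.7 CPM in DOX (quartiles 9.20 and 20.6) and 12.5 CPM in EtOH (7.82 and 19.9). The median log2 DOX/EtOH ratio within immune-like cells was 0.09, with quartiles of -0.05 and 0.28, and all distal regions had a median of 0.06 there. Non-members with 90% or more immune supply had a median of -0.14, with 1620 of 5275 above 0, against 4318 of 6531 of these members. At high immune supply the choice by ratio also bears on this value, which is given as a description. Over all cells the same members had a median ratio of 4.65, from 4.00 to 13.98, and 5787 of the 6533 had a ratio below 5.62, the ratio of the count shares. Outside the immune-like clusters their median level was 0.37 CPM in DOX and 0.29 CPM in EtOH, against 2.10 and 2.38 CPM for all distal regions.

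Epithelial-supplied members showed the opposite. In cells outside the immune-like clusters the median level was 7.34 CPM in DOX (quartiles 5.11 and 11.9) and 0.95 CPM in EtOH (0.62 and 1.40). The median log2 ratio was 2.87 in these cells, from 1.92 to 4.86, and 313 of 314 reached 2, while all distal regions had a median of -0.08. The choice of the members by ratio and supply largely fixes this value, which is given as a description. Within immune-like cells the median level was 0.41 CPM in DOX and 0.22 CPM in EtOH, and 88 of the 314 members had 0 EtOH counts there.

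**Figure D2:**
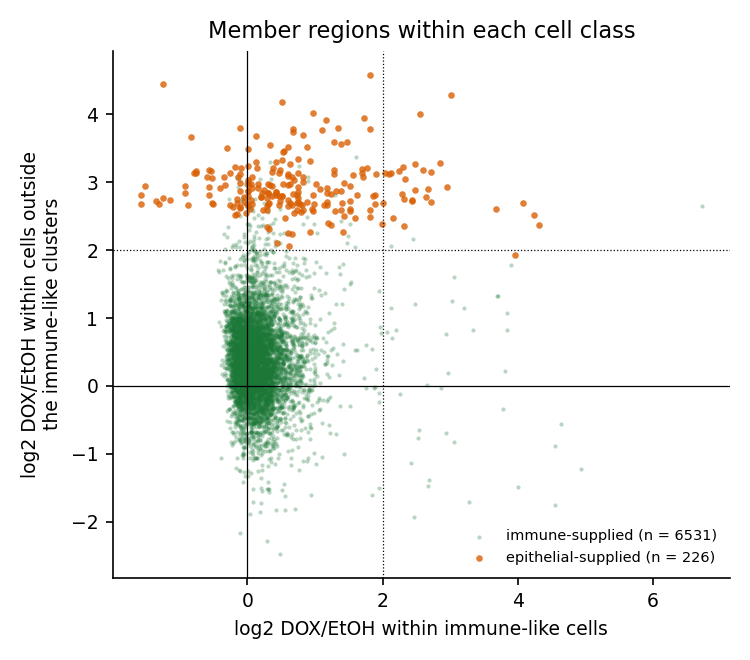
log2 DOX/EtOH ratio of each member within immune-like cells (x axis) and within cells outside the immune-like clusters (y axis), for the 6531 immune-supplied (green) and 226 epithelial-supplied (orange) members with counts in all 4 sums; dotted lines mark a log2 ratio of 2. Green points centre near 0.09 on the x axis and orange points near 2.87 on the y axis.

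A 4-fold difference within 1 cell class was rare among all distal regions. In cells outside the immune-like clusters, 1014 of 123054 distal regions with at least 200 counts there (0.824%) reached a 4-fold higher level in DOX, and 966 reached it in EtOH. Epithelial-supplied members made up 311 of the 1014, immune-supplied members 67, and the remaining 636 were not members, with a ratio over all cells of 2.59 to 4.00. In immune-like cells, 582 of 49283 regions (1.18%) reached a 4-fold higher level in DOX, and 2 reached it in EtOH. Members were 38 of these 582, of which 35 were immune-supplied.

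Peak positions moved with the calls in immune-like cells. In 402 of the 582 regions the longest DOX and the longest EtOH peak overlapped by less than 50% of one of them, so the libraries were counted over partly different sequence. Requiring 50% of each left 180 of 48105 regions, 9 of them members. The requirement touched few members otherwise, with 12 of 314 epithelial-supplied and 73 of 6533 immune-supplied members below it. The part of peak position in these calls was not tested further.

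The 7 immune-supplied members that were 4-fold higher within immune-like cells with well-matched peaks lay near ccdc198, Herpud2, Adm, Rnf144b, Rapgef2, Psmd7 and Arnt2, and were picked after their values were seen. The region in an intron near ccdc198 (chr14:49321688-49322649) had 1251 counts in the immune-like cells of DOX and 2 in those of EtOH, a log2 ratio of 6.72 (4.23 to 12.02). It was found in 34.2% of the immune-like DOX cells and 0.365% of the immune-like EtOH cells, and it was also higher outside them, with a log2 ratio of 2.65. The region near Adm, which encodes the vasodilator peptide adrenomedullin, had 973 and 11 counts, a log2 ratio of 3.90 (2.72 to 5.43). Near Herpud2 the counts were 1338 and 51, a log2 ratio of 2.14 (1.57 to 2.77).

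The epithelial-supplied members had the following levels within single clusters, whose counts also entered the choice of the members. For this comparison the counts of all 314 members were summed in each cluster that had 50 or more cells from DOX and from EtOH. The summed log2 ratio was 2.53 in hormone-sensing luminal-like cluster 4 (136 DOX and 508 EtOH cells), 1.46 in hormone-sensing luminal-like cluster 5 (93 and 498 cells), 1.496 in unnamed cluster 7 (98 and 139 cells) and 1.21 in luminal progenitor-like cluster 1 (55 and 1619 cells). Over all distal regions the same value lay between -0.04 and -0.01 in these clusters. Immune-supplied members were also higher there, at 0.31 in cluster 4, 0.80 in cluster 5, 0.28 in cluster 7 and 0.22 in cluster 1. Their median levels in these clusters were at most 0.55 CPM. In immune-like clusters 3 and 6 it was 0.66 and 0.53 for the epithelial-supplied members, at levels whose medians stayed below 0.5 CPM. In cluster 6, however, 51 of the 130 members with counts in both libraries were higher in DOX, and the median log2 ratio was -0.35. The name of cluster 1 rests on 5 of 8 luminal progenitor markers that were higher than in other cells. Also higher in cluster 1 were 5 of 9 basal and 5 of 7 fibroblast markers. In clusters 4 and 5, 6 of 7 hormone-sensing luminal markers were higher.

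Most of the DOX signal of these members came from a cluster that was nearly absent from EtOH. Cluster 2 held 1362 DOX and 11 EtOH cells and supplied 79.0% of the DOX counts of the epithelial-supplied members, against 47.0% of all DOX counts. It was left unnamed because its luminal and basal markers were too close to each other, with 8 of 9 pan-epithelial markers and 1 of 9 immune markers higher than in other cells. At a Leiden resolution of 1, clusters of 484 and 455 DOX cells with few EtOH cells were named basal-like, and one of 535 DOX cells stayed unnamed. With clusters from regions within 1 kb of a TSS, one of 597 DOX cells was basal-like and one of 844 unnamed. How many of their cells belonged to cluster 2 was not counted. A cluster held by 1 library may be that library and not a cell type. Without cluster 2, over clusters 1, 4, 5 and 7 pooled (382 DOX and 2764 EtOH cells), the median log2 ratio of the 314 members was 2.21. Of the members, 313 were above 0 and 289 (92.0%) at 1 or more, beside 8.30% of all distal regions. The pooled value also holds the mix of these clusters, which differed between the libraries. Cluster 1, for example, gave 55 of the DOX and 1619 of the EtOH cells. Within clusters 1, 4, 5 and 7 singly, the medians over members with counts in both libraries were 1.22, 2.49, 1.53 and 1.56. These clusters hold most of the EtOH counts by which the members were chosen, so the values are a description.

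In EtOH the epithelial-supplied members were most open in cluster 7. This cluster was left unnamed because the fibroblast marker Dcn was among its 10 leading genes, where no basal marker stood. Its basal markers had the highest median log2 difference from other cells, 0.88, beside 0.28 for fibroblast markers. Higher in cluster 7 than in other cells were 8 of 9 basal, 6 of 7 fibroblast and 1 of 9 pan-epithelial markers. The median level of the members there was 2.22 CPM, against 0.79 and 0.59 CPM in the hormone-sensing luminal-like clusters and 0.75 CPM in the luminal progenitor-like cluster, and 195 of the 314 members had their highest EtOH level in cluster 7. In DOX the medians were 8.22 CPM in cluster 2, 7.61 CPM in cluster 7, 4.84 and 1.52 CPM in hormone-sensing luminal-like and 1.78 CPM in luminal progenitor-like cells. The highest DOX level was in cluster 2 for 154 members, in cluster 7 for 117 and in hormone-sensing luminal-like cluster 4 for 35.

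**Figure D3:**
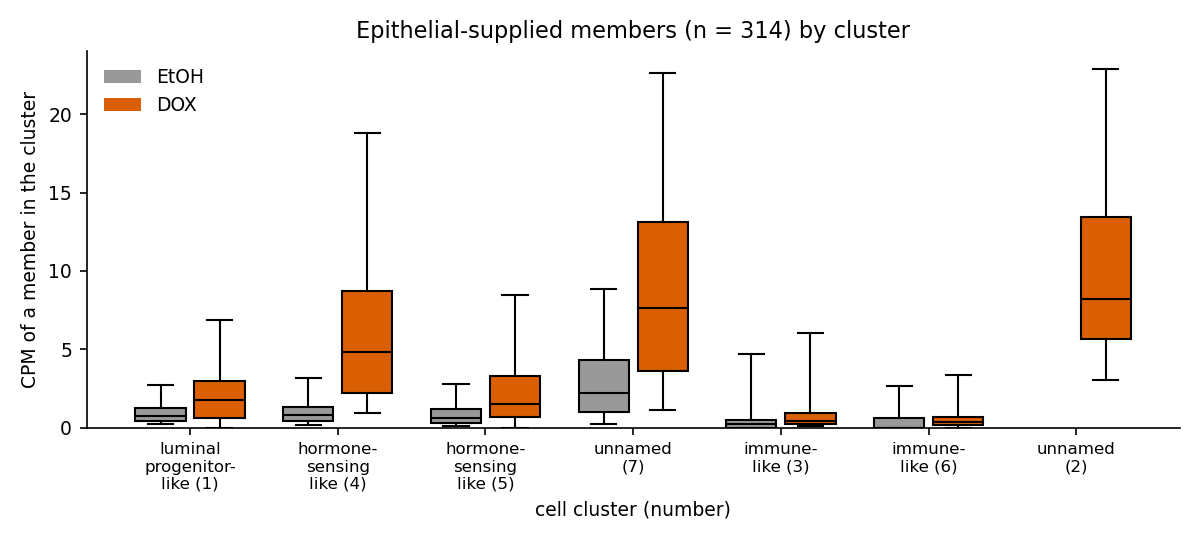
Level of the 314 epithelial-supplied members (CPM of the cluster's own counts in shared regions) in 7 cell clusters, in EtOH (grey) and DOX (orange). Boxes show the quartiles and median over members and whiskers the 5th and 95th percentiles; EtOH is not drawn for cluster 2, which held 11 EtOH cells. Clusters 2 and 7 are unnamed. The median was 0.79 CPM in EtOH and 4.84 CPM in DOX in cluster 4, and 2.22 and 7.61 CPM in cluster 7.

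The higher signal was spread over many cells. A median epithelial-supplied member had a fragment in 19.7% of the DOX cells outside the immune-like clusters and in 2.90% of the EtOH cells. After every cell had been thinned to 5000 fragments, these shares were 3.62% of 1685 DOX cells and 0.481% of 2702 EtOH cells, with 126 and 128 shallower cells left out. In immune-like cells, which should lack most of these regions, the thinned share was 0.162% in DOX and 0 in EtOH, where 1 of the 271 cells kept is a share of 0.369%. Median depths were 73893 and 69262.5 counts outside and 75696.5 and 53442.5 counts inside the immune-like clusters. A median immune-supplied member had a fragment in 6.72% of the thinned immune-like DOX cells and in 6.27% of those of EtOH.

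The 10 highest ratios among epithelial-supplied members lay near Lypd6b, Chrm3, Cyp4a29, Syn3, St3gal1, Tom1l1, Pisd, Schip1, Calcrl and Trim2. The region near Chrm3, which encodes a muscarinic acetylcholine receptor, had 2845 counts in DOX and 170 in EtOH, and its log2 ratio outside the immune-like clusters was 4.59 (4.27 to 4.92). The region 11881 bp from the TSS of Cyp4a29, a cytochrome P450 gene, had 1814 and 115 counts. Both libraries had peaks of nearly equal length in each of these regions, with 906 and 885 bp near Chrm3 and 876 and 856 bp near Cyp4a29. In cluster 7 the Cyp4a29 region stood at 21.1 CPM in DOX and 3.94 CPM in EtOH, and in luminal progenitor-like cells at 11.6 and 0.50 CPM.

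The region in an intron of Lypd6b had the highest ratio of all members, 20.2, but with only 384 and 18 counts. Its peaks covered 886 bp in DOX and 271 bp in EtOH, and per covered base its log2 ratio over all cells was 2.62 instead of 4.33. The region near Calcrl, a receptor subunit for peptides of the calcitonin family, had 497 and 44 counts over 933 and 584 bp. The part of peak position in these ratios was not tested beyond that.

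Further members of the 10 were better covered. The region 50011 bp upstream of St3gal1, a sialyltransferase, had 3164 and 231 counts and was higher in DOX in each of clusters 1, 4, 5 and 7. It stood at 0.43 CPM in EtOH and 13.7 CPM in DOX in luminal progenitor-like cells, at 2.01 and 27.6 and at 2.35 and 11.9 CPM in the hormone-sensing luminal-like clusters, and at 3.15 and 25.7 CPM in cluster 7. The region in an intron of Syn3 had 2193 and 153 counts, with 29.8 CPM in cluster 7 of DOX and 6.60 CPM in that of EtOH. The region near Tom1l1, an adaptor protein of endosomal sorting, had 1545 and 117 counts. Near Pisd, which encodes an enzyme of mitochondrial phospholipid synthesis, the counts were 2110 and 168, and near Trim2, a ubiquitin ligase, 1993 and 177. In luminal progenitor-like cells the Syn3 region stood at 0.59 CPM in DOX and 0.45 CPM in EtOH. That DOX level rests on very few counts from 55 cells, so the 2 levels cannot be compared closely.

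The members with the most counts lay near Scara3, Ado, Ccn2, Cd44 and Tmem45a. The region 149121 bp upstream of Ccn2, a matricellular protein gene and YAP target, had 3755 counts in DOX and 516 in EtOH, a log2 ratio outside the immune-like clusters of 3.37 (3.18 to 3.56). It had a fragment in 56.1% of the DOX and 8.06% of the EtOH cells outside those clusters. The region 85320 bp upstream of Cd44, which encodes the hyaluronan receptor, had 3724 and 600 counts, of which 33.0% of those in DOX came from immune-like cells. Its log2 ratio was 2.97 outside the immune-like clusters and 0.53 within them. In cluster 7 the Cd44 region was high in both libraries, at 15.1 CPM in DOX and 11.7 CPM in EtOH.

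Epithelial-supplied members lay nearest to 300 different genes, and 14 of these genes had 2 members each. Of the 314 members, 291 (92.7%) had no other member of the class within 50 kb. Of the 6533 immune-supplied members, a class with many more regions, 37.4% stood alone, and the shares are not comparable because class size enters them. The longest chain held 4 members of 7 distal regions in 29.5 kb between Ccdc25 and Scara3 (chr14:65878481-65908010). The 4 members had ratios between 4.92 and 10.0. Genes with 2 members included Ankrd1, Ccdc25, Cntnap5b, Dpysl3, Fhl2, Garnl3, Ppp2r2b, Rnd3, Scara3, Serpinb6d, Sorbs2, Tshz2 and Ybx3. The 2 regions of Fhl2, a cofactor of actin-regulated transcription, had 2171 and 412 counts and 1389 and 264 counts.

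Over all distal regions 0.229% were epithelial-supplied members, and the shares near genes of the lists are given beside this value from the same contrast. The luminal progenitor list had 2 among 212 distal regions (0.943%), at Csn3 and Ehf. The region 17975 bp from the TSS of Csn3, the kappa-casein gene, had 650 and 86 counts, and its DOX signal was highest in cluster 2 at 6.28 CPM. The region 80259 bp from the TSS of Ehf, an ETS family factor of epithelial cells, had 762 and 169 counts and held 2 GATA strings. The YAP target list had 4 of 366 (1.09%) at Ccn2, Crim1 and Ankrd1 and the SRF/MRTF list 2 of 311 (0.643%) at Fhl2. The GATA and ETS factor list had 1 of 527 (0.190%), at Ehf. The EGF family list had 1 of 209 (0.478%) at Tgfa, which encodes a ligand of the EGF receptor (871 and 197 counts). The macrophage, inflammatory, lymphoid and dendritic, MHC, hormone-sensing luminal, basal, alveolar and AP-1 lists had 0. On the study's own luminal progenitor and luminal mature lists there were 9 of 2997 (0.3003%) and 7 of 3832 (0.183%) epithelial-supplied members, Cd44, Hey1, Rnd3 and Sorbs2 on the first and Sdc1, Klf6, Klf9, Ptn and Tnfrsf21 on the second among them.

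GATA strings were much more frequent in epithelial-supplied members than elsewhere. AGATAA on either strand was found in the central 300 bp of 141 of the 314 members (44.9%, Clopper-Pearson interval 39.3 to 50.6%), in 12.4% of the immune-supplied members and in 13.8% of all other distal regions. The share was 13.8% over all 137290 distal regions. Other distal regions weighted to the GC content of the members reached 16.3%. At least 2 strings were present in 9.24% of the epithelial-supplied members and in 1.196% of the other distal regions. The motif did not enter the choice of the members, but a match is only a string of letters and not a shown binding site.

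The GATA strings lay near the midpoints of the regions. In epithelial-supplied members, 10.5% had one that began in the 50 bp before the midpoint and 3.18% in the bin 450 to 400 bp before it. In immune-supplied members the same bins held 2.05% and 3.11%.

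The share of regions with a GATA string was also higher at higher ratios among regions that were not members. Among such distal regions with under 50% immune supply and at least 200 counts outside the immune-like clusters, it was 11.2% of the 34883 regions with a log2 ratio from -0.5 to 0 in those cells and 14.4% of the 28476 from 0 to 0.5. It was 20.8% from 0.5 to 1, 30.7% of 5212 regions from 1 to 2 and 38.8% of 631 regions at 2 or more. Of the 533 regions at -2 or less, 14.3% held the string. Within the 314 members the string did not mark the larger ratios, with medians of 2.83 with and 2.91 without it, but the level in DOX was 8.33 CPM with and 6.63 CPM without it.

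Other strings differed less. The RUNX string TGTGGT was found in 42.4% (36.8 to 48.0%) of epithelial-supplied members and 28.6% of other distal regions, the SOX string AACAAT in 26.8% and 16.6%, the CEBP string TTGCNNAA in 24.5% and 16.3% and the TCF/LEF string CTTTGAT in 10.5% and 4.4%. Other distal regions weighted to the GC content of the members reached 29.7% for RUNX, 20.05% for SOX, 18.2% for CEBP and 4.97% for TCF/LEF. Among those with under 50% immune supply the weighted SOX share was 21.3%, just below the interval of the members (21.9 to 32.0%). A GATA or RUNX string was present in 67.2% of the epithelial-supplied members and in 38.5% of other distal regions with under 50% immune supply. The AP-1 string TGANTCA was less frequent beyond the counting interval, at 16.9% (12.9 to 21.5%) and 22.3%. The FOX string TGTTTAC, at 6.1% and 5.8%, and the ETS string, at 39.2% and 42.3%, did not differ beyond it. The TEAD string GGAATG was at 27.1% (22.2 to 32.3%) and 21.2%. Among other distal regions with under 50% immune supply it was at 22.8%, inside the interval. An SRF motif was found in 0.96% (0.20 to 2.77%) and 1.63%. A CTCF motif was found in 0 of the 314 members, which allows a share of up to 1.2%, and in 4.2% of other distal regions.

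**Figure D4:**
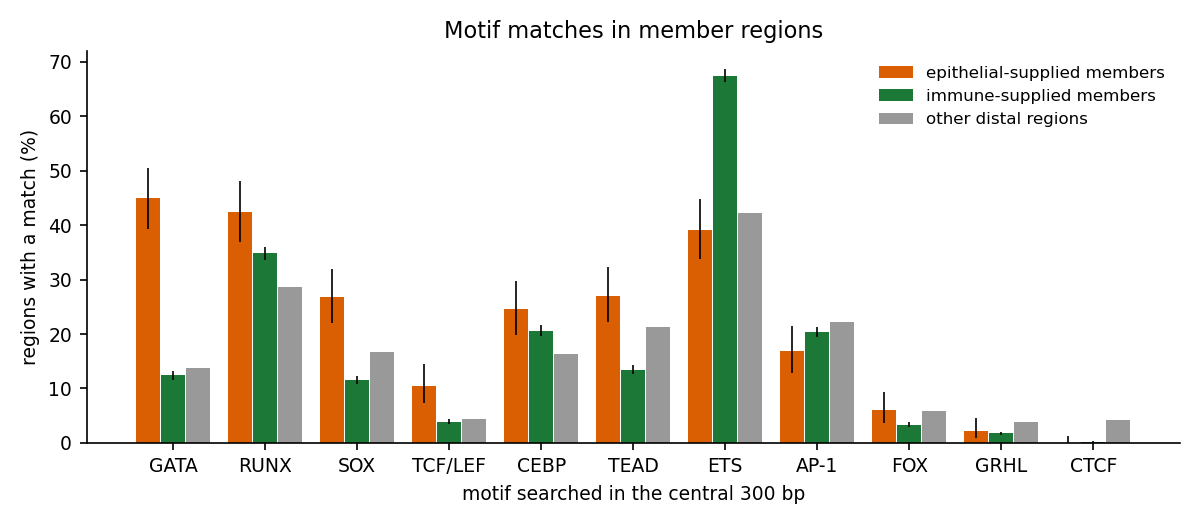
Percentage of epithelial-supplied members (orange), immune-supplied members (green) and other distal regions (grey) with a match to each of 11 motifs in the central 300 bp; error bars are Clopper-Pearson 95% intervals. GATA stands at 44.9% in epithelial-supplied and ETS at 67.5% in immune-supplied members.

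ETS strings were frequent in the immune-supplied members. AGGAAG was found in 67.5% (66.3 to 68.6%) of them, in 42.3% of all other distal regions and in 54.8% of other distal regions with 50% or more immune supply. Non-members with 90% or more immune supply had it in 65.2%, close to the members. In immune-supplied members it was also central, with a match beginning in the 50 bp before the midpoint in 21.0% and in the bin 450 to 400 bp before it in 7.27%. The RUNX string was found in 34.8% and the CEBP string in 20.6% of them.

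**Figure D5:**
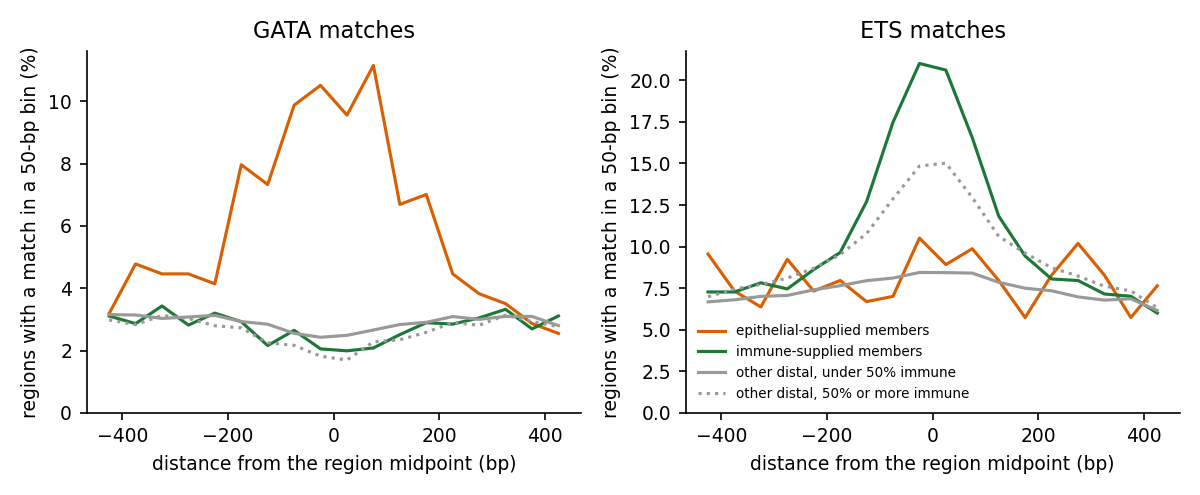
Percentage of regions with a GATA (left) or ETS (right) match beginning in each 50-bp bin, by distance from the region midpoint, for epithelial-supplied members (orange), immune-supplied members (green) and other distal regions with under 50% (solid grey) or 50% or more (dotted grey) immune supply. GATA matches of epithelial-supplied and ETS matches of immune-supplied members peak near the midpoint, at 10.5% and 21.0% in the 50 bp before it.

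The immune-supplied members with the most counts lay near Srgn, Glrp1, Nat9, 2510009E07Rik and Dapk1. The region in an intron near Srgn, which encodes the granule proteoglycan serglycin of blood cells, had 6094 counts in DOX and 1215 in EtOH. Within immune-like cells it stood at 72.9 CPM in DOX and 78.3 CPM in EtOH, a log2 ratio of -0.10 (-0.24 to 0.03), and it had a fragment in 86.0% and 84.3% of the cells. The region near Glrp1 likewise differed little within immune-like cells, at 70.4 and 76.8 CPM. The region near Nat9 was an exception, with a log2 ratio of 1.02 (0.82 to 1.23) within immune-like cells, but its peaks covered 979 bp in DOX and 494 bp in EtOH.

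The 10 highest ratios among immune-supplied members were those near Akap7, Herpud2, Shq1, Gja10, ccdc198, Hpgd, Arntl, Gramd1b, Maml2 and Tbc1d4, from 9.74 to 13.98. All of them had log2 ratios above 1 within immune-like cells, which 130 of the 6531 immune-supplied members with counts in both reached. The 10 were picked by the ratio over all cells, and immune-like cells supplied most of their DOX counts. The choice therefore largely fixes this value, which is given as a description. The peaks of 4 of them, near Akap7, Shq1, Hpgd and Gramd1b, overlapped by less than 50%. The Akap7 region had only 222 and 15 counts, with covered lengths of 874 and 276 bp. The region in an intron near Maml2, a coactivator of Notch signalling, had well-matched peaks of 912 and 915 bp, and in immune-like cells it stood at 29.7 CPM in DOX and 11.03 CPM in EtOH.

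Regions near genes of myeloid cells were among the immune-supplied members. The macrophage identity list had 103 members among its 468 distal regions (22.0%), near 30 genes, and the inflammatory list 41 of 255 (16.1%), near 19 genes. The lymphoid and dendritic list had 7 of 63, the MHC list 6 of 48 and the AP-1 list 17 of 170 (10.0%). The share over all distal regions was the 4.99% given above, and it comes from the same contrast as the choice of the members. Within immune-like cells the median log2 ratio was 0.06 over all distal regions of the macrophage list and 0.13 over those of the inflammatory list.

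Single regions of these lists had nearly equal levels in the immune-like cells of both libraries. The region 43537 bp upstream of Tlr2, a receptor for bacterial lipoproteins, had 4464 counts in DOX and 877 in EtOH, with 53.8 and 54.4 CPM in immune-like cells. The region near Cx3cr1, the fractalkine receptor gene, stood at 40.9 and 40.8 CPM there and the one near Fcgr1, an antibody receptor gene, at 43.8 and 49.1 CPM. The region 2314 bp upstream of Il1b, an inflammatory cytokine gene, stood at 51.3 and 53.2 CPM. A second Il1b member, 10785 bp from the TSS, drew only 54.2% of its DOX counts from immune-like cells, and its log2 ratio was 2.58 outside and 0.09 (-0.14 to 0.31) within them. The region near Ccr7, a chemokine receptor of dendritic and T cells, was higher within immune-like cells, at 23.6 and 16.0 CPM, a log2 ratio of 0.56 (0.27 to 0.86).

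Over all distal regions 4.76% were immune-supplied members, and the shares were lower near genes of the epithelial lists. The luminal progenitor list had 4 of 212 (1.89%, 2 near Cd14, which macrophages also express, and others near Ltf and Itga2), the hormone-sensing luminal list 4 of 253 (near Gata3, Esr1 and Prlr), the basal list 3 of 220 (near Egfr, Itga6 and Acta2) and the alveolar list 1 of 64 near Xdh. The region 128414 bp from the TSS of Gata3 drew 71.2% of its DOX counts from immune-like cells, and its log2 ratio was 1.95 outside and 0.25 (-0.03 to 0.54) within them. The region in an intron of Esr1, the estrogen receptor gene, drew 94.8% of its DOX counts from immune-like cells. These regions were named by distance alone, and the gene and the supplying cells need not belong together. The GATA and ETS factor list had 25 of 527 (4.74%), the SRF/MRTF list 10 of 311 (3.22%), the YAP list 10 of 366 (2.73%) and the EGF family list 4 of 209 (1.91%). The study's luminal progenitor and luminal mature lists had 135 of 2997 (4.50%) and 153 of 3832 (3.99%). The share of the GATA and ETS factor list was about the 4.76% of all distal regions, and that of the study's luminal progenitor list was close to it. The other shares lay below it.

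Immune-supplied members lay nearest to 3704 genes, of which 1350 had at least 2 members and 195 at least 5. Members were 12 of 26 distal regions nearest Kctd12, 12 of 61 nearest Chd7, 11 of 100 nearest Lpp, 11 of 24 nearest Prkcb, 10 of 32 nearest Fam49a, 10 of 14 nearest Lcp2, 10 of 37 nearest Pid1 and 10 of 26 nearest Zeb2. Lcp2 encodes the adaptor SLP-76 of immune receptor signalling and Prkcb a protein kinase C. The longest chain, with gaps of at most 50 kb, held 17 members of 31 distal regions in 225 kb around Kctd12 and Acod1, where Acod1 encodes the itaconate-producing enzyme of activated macrophages. Another of 13 members in 15 distal regions spanned Lilr4b and Lilrb4a, genes of leukocyte immunoglobulin-like receptors (chr10:51422161-51535804).

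In position the members as a whole, most of them immune-supplied, were close to other distal regions. Of the 6847 members 52.5% lay in a protein-coding gene body, compared with 54.3% of other distal regions. The share was 52.7% for immune-supplied members, beside 57.5% of non-members with 90% or more immune supply. For epithelial-supplied members it was 47.8%, beside 53.5% of non-members with under 50% immune supply. Of the epithelial-supplied members 145 were intronic, 5 exonic and 164 intergenic. They lay farther from the nearest TSS, at a median of 35964.5 bp, than immune-supplied members at 21098 bp and all distal regions at 23206 bp. Their median GC content was 45.3%, against 47.0% and 47.7%. By chromosome the epithelial-supplied share of distal regions ranged from 0.119% on chromosome 11 to 0.342% on chromosome 6, and the immune-supplied share from 3.89% on chromosome 18 to 5.75% on chromosome 16.

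The promoters of the nearest genes were compared in the same way. Of the 300 genes nearest an epithelial-supplied member, 261 had a promoter region within 1 kb of a TSS with at least 200 counts, and their median log2 ratio outside the immune-like clusters was 0.05, with quartiles of -0.02 and 0.19. Of these promoters 6 (2.30%) were at least 2-fold higher in DOX, compared with 0.928% of 14120 promoters. Genes nearest an immune-supplied member had a median promoter ratio of -0.03 within immune-like cells and 0.15 over all cells. Over all cells 8.67% of these 3138 promoters were at least 2-fold higher in DOX, and 19.02% of the 184 promoters of genes with 5 or more immune-supplied members, beside 3.75% of all promoters.

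The threshold of 4 fell among regions of the same kind. The 5 members just inside it lay near Krt24 (580 and 137 counts), Grm4, Gpc5, Ttc39b and Mfhas1, and the 5 regions just outside it near Arl15 (762 and 180 counts), Sh3glb1, Fem1c, Peg10 and Hip1. All 10 drew 89.4 to 97.9% of their DOX counts from immune-like cells. The counting interval of the ratio lay wholly above 4 for 2437 immune-supplied and 158 epithelial-supplied members. When every cell was given the same weight, 4248 members were found in place of 6847, at a ratio of immune-like cell shares of 4.65 in place of 5.62 for counts, and 92.5% of them were immune-supplied.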

How the data were processed

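Single-cell ATAC-seq of mouse mammary organoids was taken from 1 DOX and 1 EtOH library. The authors deposited counts, whole numbers of transposition events per peak and barcode, made with Cell Ranger ATAC 2.0.0 per the file headers (mm10 per the labels' processing notes) and not normalized, with peak coordinates called in each library alone. The methods name another version of that software. Peaks were merged at 1 bp of overlap, counts summed per library and scaled to its total in shared regions, with 94.7% (DOX) and 94.9% (EtOH) of the counts on chromosomes 1 to 19. Genes and TSS came from GENCODE M21 and sequence from GRCm38, and 0 regions ended beyond a GRCm38 chromosome. All deposited cells were kept and no doublet caller was run; depth per library is given above, and intervals are exact conditional binomial or Clopper-Pearson.

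Cells were clustered on shared regions without the members by TF-IDF and singular value decomposition (components 2 to 30), 15 neighbours and the Leiden algorithm at a resolution of 0.5, and named from marker lists over gene bodies plus 2 kb upstream. Clusters of low depth, or with more markers of another list among their 10 leading genes, stayed unnamed. The members, gene lists, markers and motifs were chosen with earlier results of these data known. Named are the 10 highest ratios, the 5 members with most counts and the 5 genes with most members in each class with ties, up to 4 members per gene list, and 5 regions on each side of the threshold. A few genes that the rule names are not reported here. The member rule and the motif scan were tested on simulated data. Python 3.11.15, NumPy 2.4.6, SciPy 1.17.1, pandas 2.3.3, scikit-learn 1.9.0, igraph 0.11.9, leidenalg 0.10.2 and matplotlib 3.10.9 were used.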

Additional observations from a re-analysis of the deposited data

How the results depend on the processing

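No paired analysis was possible because DOX and EtOH had a single library apiece, and no library could be left out. Of 43 alternatives, 30 left the result inside its counting interval or, for counts, within 1.5 times, 13 moved it and 0 turned its direction. A turn of direction could be recorded only for the within-class ratios and the motif differences. For the ratio of epithelial-supplied members the choice of the members largely fixes the direction. The number of members was 4248 with every cell weighted equally and stayed between 5882 and 8808 under the other 9 alternatives. The immune-supplied share of 95.4% moved to 93.6% at a limit of 80% of DOX counts, 96.4% without the 5% deepest cells and 92.5% with cells weighted equally. The median log2 ratio of 0.09 of immune-supplied members within immune-like cells moved to 0.14 with clusters from regions within 1 kb of a TSS, 0.0343 when centred on all distal regions and 0.0447 per covered base. That of 2.87 for epithelial-supplied members moved to 2.96 when centred. It moved to 2.21 over clusters 1, 4, 5 and 7 pooled, whose mix differed between the libraries. This alternative was added after seeing the data, as was the overlap of the longest peaks. The overlap left 180 of 582 regions 4-fold higher within immune-like cells. The ETS difference of 25.2 percentage points moved to 11.8 over whole regions and 22.9 with a longer string, while the GATA difference of 31.1 points ranged from 27.9 to 33.1. The share in gene bodies moved from 52.5% to 50.3% for midpoints 5 to 200 kb from a TSS. The cause was not tested. Members with few EtOH counts, such as the 18 near Lypd6b, are limited by depth.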

Other observations

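Within the cells outside the immune-like clusters, 636 distal regions were at least 4-fold higher in DOX without being members, with a median log2 ratio of 2.22 there. A GATA string was found in 38.8% and a TCF/LEF string in 7.7% of them.

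Of other distal regions with 50% or more immune supply, 439 were at least 4-fold higher in DOX within immune-like cells and 1 at least 4-fold lower. In 345 of the 439 the longest peaks of the libraries overlapped by less than 50% of one of them.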
